A study of Homo sapiens with 6 samples.

Results

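Transcripts of 43 genes of cholesterol and fatty acid synthesis were measured in L3.6pl, a cell line grown from human pancreatic cancer. The genes were taken by symbol from a list of this pathway, 43 of 23245 rows with a usable symbol. The rule uses no measured value, but the list was drawn up with earlier results of these data known. MSMO1 was found under its current symbol and SC5D under the older symbol SC5DL. The 2 groups were ARID1A-deficient cells (3 libraries, titled as a knockout) and the parental cells they were set against (3 libraries, genotype WT). ARID1A encodes a subunit that helps SWI/SNF, a nucleosome-moving complex, to hold DNA. Per the labels, both groups were kept in a medium with fetal calf serum, and no drug is named. How ARID1A was disrupted, and whether the deficient cells are 1 clone or several, is not stated in the labels. The protocol speaks of triplicate samples and does not call them separate cultures, so p-values measure the spread between these samples, which may be technical.

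Cells build cholesterol from acetyl-CoA through the mevalonate pathway and a series of sterol ring enzymes, and build fatty acids from the same precursor with acetyl-CoA carboxylase and fatty acid synthase. Both routes are driven by the SREBP transcription factors, which are held in the endoplasmic reticulum by INSIG proteins when sterols are plentiful and are carried to the Golgi by SCAP when they are scarce. Fatty acids are activated by long-chain acyl-CoA synthetases, and can be lengthened by elongases and given double bonds by desaturases, before they enter membranes or stored lipid.

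The promoters of 39 of the 43 genes were found in a RefSeq table of build GRCh38.p14, and the 250 bases before the transcript start were searched on both strands for the letters TCACNCCAC (a form of the sterol regulatory element bound by SREBP), CCAAT (the NF-Y box), GGGCGG (the Sp1 box) and CACGTG (an E-box). ACAT2, FDFT1, SQLE and FASN were not looked up elsewhere. Each gene was searched at 1 start, and any other starts were not searched. A match is a description of letters, not a binding site. CCAAT stood in 15 of 19 promoters of the cholesterol branch (78.9%) and in 8 of 17 of the fatty acid branch (47.1%), beside 35.8% of 8779 promoters of tested genes and 33.0% of 27303 promoters in the table. GGGCGG stood in 32 of the 39 (82.1%), beside 68.3% of promoters of tested genes and 42.3% of all promoters. CACGTG was found in 4 of the 39 (10.3%), beside 9.12% of promoters of tested genes and 6.49% of all. TCACNCCAC was found in 1, that of SREBF2, and in 0.875% of all promoters. Matches of different motifs overlapped once among the 39. The first 3 promoters below belong to genes that did not pass the test and carry CCAAT. The last 3 promoters belong to genes that did pass and do not carry it in the window shown. These were picked to show both kinds and are not typical: ELOVL1 passed and holds CCAAT, and 22 of 33 promoters of members that did not pass hold it, so the others lack it. The FADS2 window lies downstream of the start of FADS1, whose own window is chr11:61817004-61817253 on the minus strand. Motifs at other starts of FADS2 were not looked for. Capitals mark matches to any of the 4 motifs, and each sequence runs 5′ to 3′ on the gene's strand.
SREBF2 (chr22:41832855-41833104, plus strand): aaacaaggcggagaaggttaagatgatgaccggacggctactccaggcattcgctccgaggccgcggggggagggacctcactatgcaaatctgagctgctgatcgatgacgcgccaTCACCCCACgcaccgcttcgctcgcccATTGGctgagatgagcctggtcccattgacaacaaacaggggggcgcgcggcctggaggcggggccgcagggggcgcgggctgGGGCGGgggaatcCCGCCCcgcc
FDPS (chr1:155308616-155308865, plus strand): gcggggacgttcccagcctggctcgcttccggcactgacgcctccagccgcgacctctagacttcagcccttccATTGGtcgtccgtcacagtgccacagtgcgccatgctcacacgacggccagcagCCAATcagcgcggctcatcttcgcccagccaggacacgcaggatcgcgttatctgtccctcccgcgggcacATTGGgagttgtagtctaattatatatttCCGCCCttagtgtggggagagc
MSMO1 (chr4:165327419-165327668, plus strand): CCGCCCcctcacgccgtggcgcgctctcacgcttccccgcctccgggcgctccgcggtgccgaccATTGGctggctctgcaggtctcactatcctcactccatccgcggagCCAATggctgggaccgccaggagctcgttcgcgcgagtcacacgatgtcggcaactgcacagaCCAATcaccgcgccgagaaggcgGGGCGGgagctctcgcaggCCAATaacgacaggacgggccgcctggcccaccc
ELOVL6 (chr4:110198616-110198865, minus strand): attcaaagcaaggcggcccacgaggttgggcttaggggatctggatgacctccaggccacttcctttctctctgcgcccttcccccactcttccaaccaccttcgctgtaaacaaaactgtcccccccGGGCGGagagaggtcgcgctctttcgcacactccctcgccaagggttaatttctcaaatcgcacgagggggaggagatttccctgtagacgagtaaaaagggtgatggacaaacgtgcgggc
FADS2 (chr11:61815953-61816202, plus strand): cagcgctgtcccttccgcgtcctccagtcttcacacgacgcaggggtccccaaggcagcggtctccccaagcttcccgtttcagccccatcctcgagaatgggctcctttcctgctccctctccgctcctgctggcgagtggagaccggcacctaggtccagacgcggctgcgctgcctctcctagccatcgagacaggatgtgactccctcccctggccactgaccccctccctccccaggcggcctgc
ACSL5 (chr10:112375018-112375267, plus strand): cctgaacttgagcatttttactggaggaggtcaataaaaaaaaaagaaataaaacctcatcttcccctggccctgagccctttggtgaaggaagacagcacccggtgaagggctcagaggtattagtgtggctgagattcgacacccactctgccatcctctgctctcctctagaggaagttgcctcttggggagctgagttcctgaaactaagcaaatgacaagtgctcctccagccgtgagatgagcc

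Each library gave a value per gene in FPKM, which corrects fragment numbers for the length of the transcript and the size of the library, so levels of different genes can be set side by side. No label or header gives fragment totals. Relative depth, estimated from steps between low values, was 0.732 to 1.27 in ARID1A-deficient libraries and 0.785 to 1.04 in parental libraries, with parental library 1 set to 1. ARID1A itself measured 3.55, 3.28 and 3.61 FPKM in ARID1A-deficient libraries 1, 2 and 3, against 11.8, 6.76 and 9.42 FPKM in parental libraries 1, 2 and 3 (limma adjusted p = 0.0061). The epithelial markers KRT8, KRT18, KRT19, EPCAM and CDH1 were measured in every library, with sums of 2652.1 to 3395.5 FPKM in ARID1A-deficient and 3957.3 to 6114.1 FPKM in parental libraries. None of these epithelial markers was called higher or lower. ADIPOQ and LEP of fat cells, TTR and FGB of hepatocytes, and DCN and LUM of fibroblasts were listed at 0 in all 6 libraries. Other markers were present. FABP4 of fat cells measured 0.889 to 1.55 FPKM in ARID1A-deficient and 5.46 to 9.73 FPKM in parental libraries, SERPINA1 of hepatocytes reached 0.809 FPKM and PDGFRA of fibroblasts 0.258 FPKM. The 4 leukocyte markers summed to 5.95 to 7.65 FPKM in ARID1A-deficient and 8.51 to 9.87 FPKM in parental libraries, mostly CD68, which was called lower. The 4 endothelial markers summed to 8.64 to 9.23 FPKM in ARID1A-deficient and 8.43 to 10.0 FPKM in parental libraries, mostly CDH5, with PECAM1 called lower. The part of other cell types in the results was not tested. Parental library 2 differed from the other parental libraries in its slope with transcript length. The slope is that of each library's deviation from the mean of all 6 libraries, on the log2 scales. It was -0.0485 in parental library 2, and 0.0517 and 0.0243 in parental libraries 1 and 3. Parental library 1 thus lay about as far from 0, on the other side. ARID1A-deficient libraries 1, 2 and 3 had slopes of -0.00583, -0.0215 and -0.000199.

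Most members did not pass the test, in a share close to that over all tested genes, and a few steps differed strongly. A member is said to rise or fall where limma on log2(FPKM + 1) gave a two-sided p under 0.05 after Benjamini-Hochberg adjustment over all 12826 tested genes. Of 42 tested members, 3 rose and 3 fell, or 14.3%, beside 15.9% of all tested genes (7.82% higher and 8.11% lower). The members that rose were ACSL1, FADS2 and ELOVL1, and those that fell were ACSL5, FDFT1 and ELOVL6. Of these 6, FDFT1 is an enzyme of sterol synthesis, and the other 5 elongate, desaturate or activate fatty acids. Without parental library 2 the counts were 8 higher and 7 lower, beside 31.8% of all tested genes, and without any other single library they were 1 to 2 higher and 3 lower. The ARID1A-deficient and parental ranges did not overlap for 16 members (38.1%), beside 35.3% of all tested genes. On the FPKM + 1 scale of the log2 fold change, the change was within 1.5-fold for 36 of the 42 (85.7%), beside 87.4% of all tested genes. The median log2 fold change was 0.04 over the members and -0.01 over all tested genes.

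**Figure D1:**
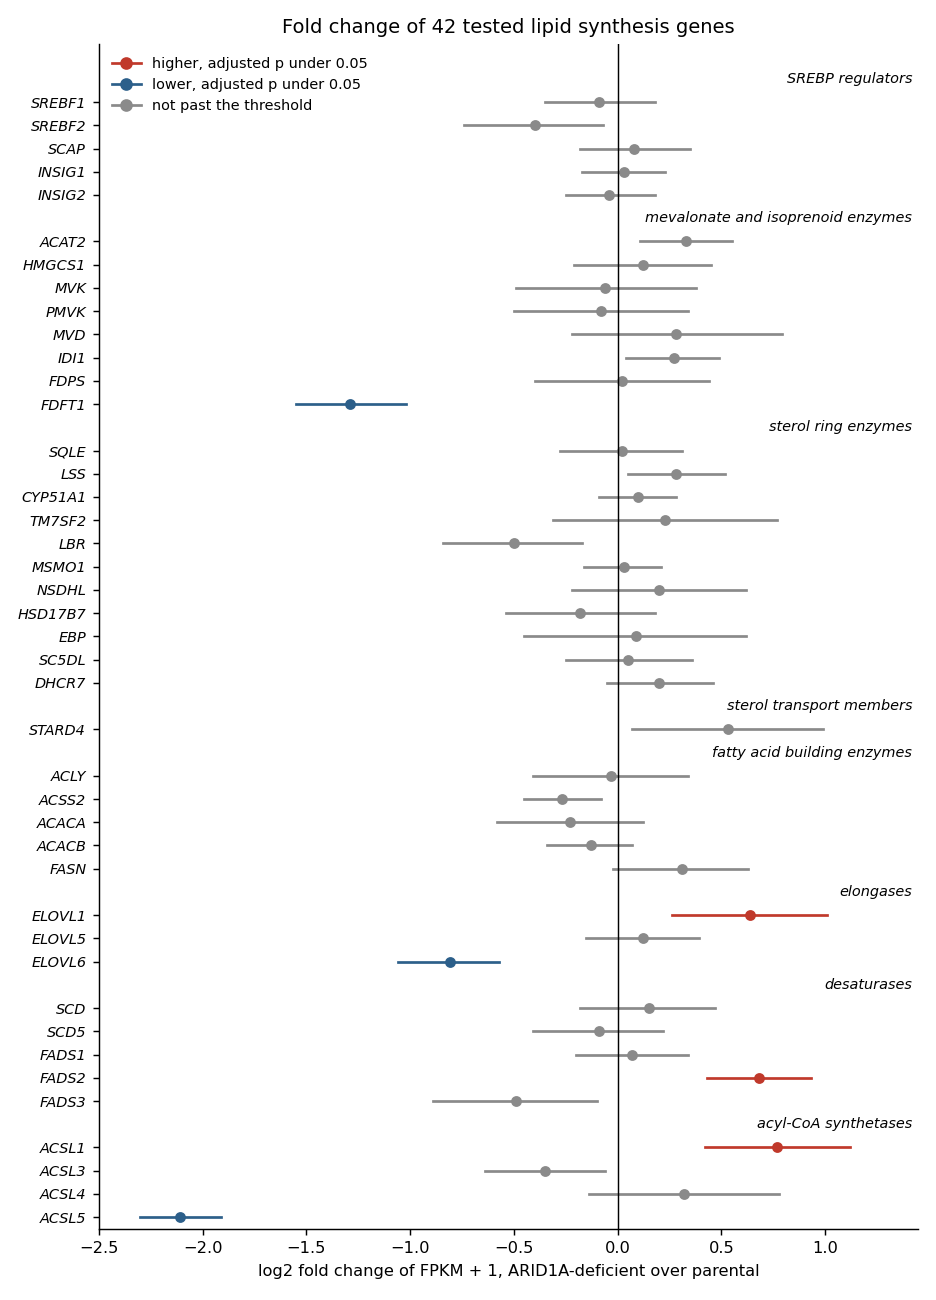
Log2 fold change of FPKM + 1 (ARID1A-deficient over parental) of the 42 tested members by role, with points for the limma estimate and lines for its 95% interval, 3 libraries a group. Red marks the 3 members that rose and blue the 3 that fell, with ACSL5 at -2.11 the farthest from 0.

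Among the 5 regulators of the SREBP pathway, none passed limma, beside 15.9% of all tested genes. By an unadjusted p under 0.05, 0 were higher and 1 lower, beside 29.5% of all tested genes in either direction. SREBF1, the gene of the factor that mainly drives fatty acid synthesis, measured 74.2, 84.4 and 85.2 FPKM in ARID1A-deficient libraries 1, 2 and 3, against 83.2, 94.4 and 81.4 FPKM in parental libraries. The groups overlapped, with a log2 fold change of -0.09 and a 95% interval from -0.35 to 0.18. SREBF2, the gene of the factor that mainly drives cholesterol synthesis, measured 42.3, 36.8 and 42.7 FPKM in ARID1A-deficient libraries, against 63.5, 45.1 and 54.8 FPKM in parental libraries. Every ARID1A-deficient value of SREBF2 lay under the lowest parental value, that of parental library 2, but the gene did not pass (log2 fold change -0.40, SE 0.14, limma adjusted p = 0.105). It did pass without parental library 2 (log2 fold change -0.53, limma adjusted p = 0.00727).

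The sensors and escorts of the same system were close to level. SCAP, the escort protein gene, measured 34.9, 41.9 and 43.2 FPKM in ARID1A-deficient libraries, against 36.2, 40.8 and 35.9 FPKM in parental libraries. INSIG1, a retention protein gene that SREBP itself induces, measured 8.23, 7.57 and 7.39 FPKM in ARID1A-deficient libraries, against 7.56, 7.41 and 7.69 FPKM in parental libraries. The 95% interval of its log2 fold change ran from -0.17 to 0.23, a narrow range around 0. INSIG2, the paralog that does not depend on SREBP in this way, measured 8.09, 7.13 and 7.80 FPKM in ARID1A-deficient libraries, against 8.42, 7.55 and 7.73 FPKM in parental libraries (95% interval -0.25 to 0.18). The INSIG genes thus had nearly equal FPKM, with INSIG1 holding 50.2% ± 1.44 of their sum in ARID1A-deficient cells and 48.9% ± 1.38 in parental cells (SD, n = 3 each).

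Of 8 enzymes that turn acetyl-CoA into squalene, 1 fell, none rose and 7 did not pass, where 15.9% of all tested genes passed. By an unadjusted p under 0.05, 2 were higher and 1 lower, beside 29.5% of all tested genes in either direction. FDFT1, the squalene synthase that commits isoprenoids to sterols, measured 100.9, 107.6 and 101.3 FPKM in ARID1A-deficient libraries 1, 2 and 3, against 240.7, 269.6 and 250.1 FPKM in parental libraries. The groups lay far apart, with means of 103.2 ± 3.77 FPKM in ARID1A-deficient cells and 253.5 ± 14.7 FPKM in parental cells (SD, n = 3 each). FDFT1 thus fell 2.45-fold (log2 fold change -1.29, SE 0.11, limma adjusted p = 0.000535), and had the highest mean of all members in parental cells. The enzyme just before it, farnesyl diphosphate synthase FDPS, averaged 165.1 ± 12.4 FPKM in ARID1A-deficient cells and 165.6 ± 36.3 FPKM in parental cells (SD, n = 3 each). FDPS was therefore higher than FDFT1 in each ARID1A-deficient library and lower than FDFT1 in each parental library.

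The earlier enzymes of the chain showed small differences. HMGCS1, the HMG-CoA synthase, measured 26.0, 22.1 and 22.3 FPKM in ARID1A-deficient libraries, against 24.7, 17.7 and 22.6 FPKM in parental libraries. Its groups overlapped, and the 95% interval of the log2 fold change ran from -0.21 to 0.45. ACAT2, the cytosolic thiolase that opens the pathway, averaged 80.7 ± 2.42 FPKM in ARID1A-deficient cells and 64.2 ± 3.28 FPKM in parental cells, and IDI1, the isopentenyl diphosphate isomerase, averaged 32.3 ± 2.97 and 26.7 ± 1.37 FPKM in the same order (SD, n = 3 each). Neither gene's groups overlapped, and neither passed limma (adjusted p = 0.0578 for ACAT2 and 0.118 for IDI1). ACAT2 passed without parental library 2 (limma adjusted p = 0.0229). Its 40 tested chromosome neighbours had a median log2 fold change of 0.32, close to its own 0.33, and their part in the ACAT2 value was not tested. The kinases MVK and PMVK and the decarboxylase MVD overlapped between groups, with log2 fold changes of -0.06, -0.08 and 0.28. MVD passed without parental library 2 (log2 fold change 0.49, limma adjusted p = 0.0318).

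**Figure D2:**
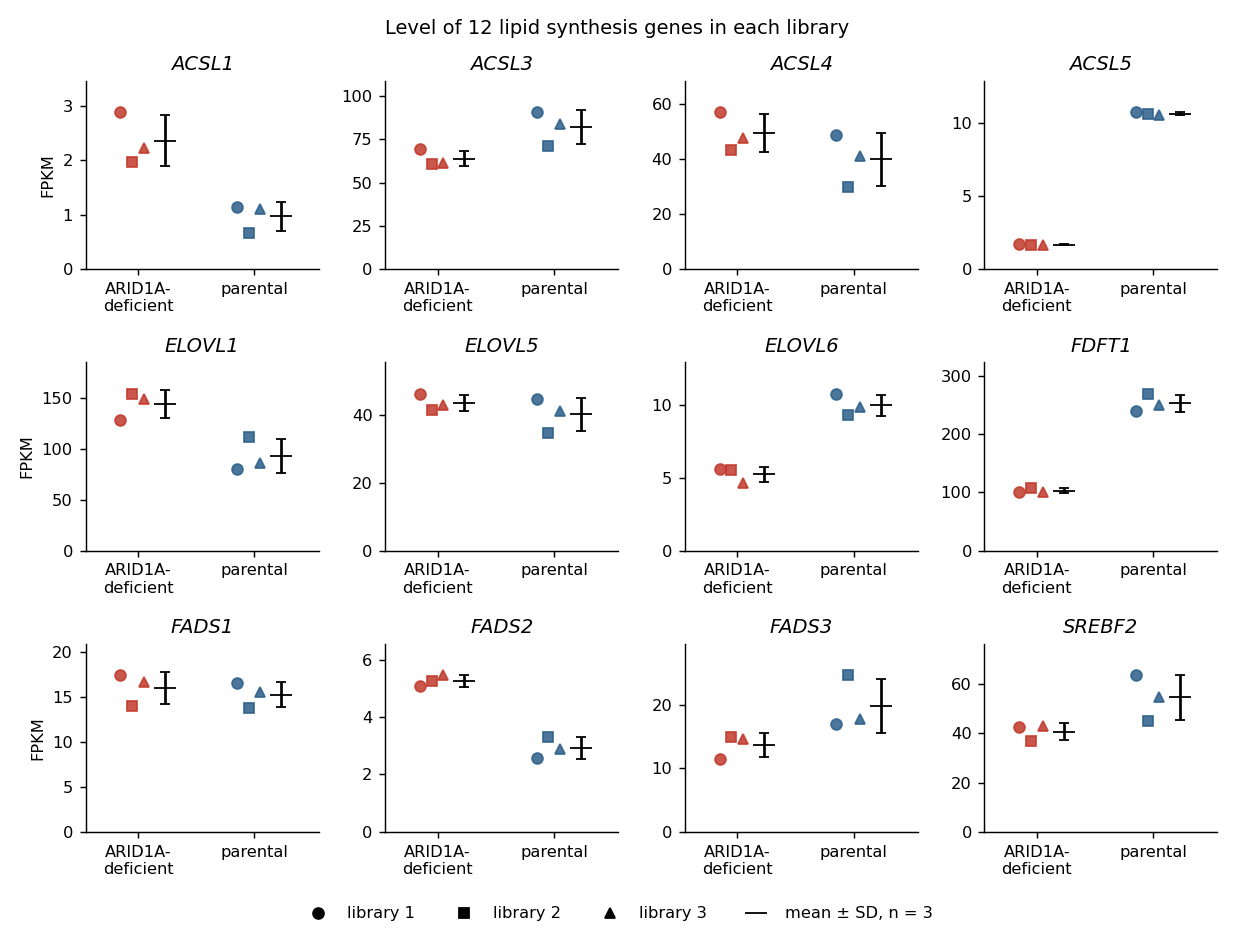
FPKM of 12 members in each library, ARID1A-deficient left and parental right, with symbols for libraries 1 to 3 and black bars for the mean ± SD (n = 3). ACSL5 and FDFT1 show the widest gaps between groups, and FADS1 and ELOVL5 overlap.

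None of the 11 enzymes that close and trim the sterol ring passed limma, beside 15.9% of all tested genes. By an unadjusted p under 0.05, 1 was higher and 1 lower, beside 29.5% of all tested genes in either direction. SQLE, the squalene epoxidase that acts on the product of FDFT1, measured 19.7, 15.6 and 16.5 FPKM in ARID1A-deficient libraries, against 18.1, 14.9 and 18.2 FPKM in parental libraries. Its groups overlapped, and its log2 fold change of 0.02 had a 95% interval from -0.28 to 0.31. LSS, the lanosterol synthase, averaged 13.4 ± 0.81 FPKM in ARID1A-deficient cells and 10.8 ± 1.04 FPKM in parental cells (SD, n = 3 each), without overlap (limma adjusted p = 0.102, and 0.0304 without parental library 2). CYP51A1, the lanosterol demethylase, averaged 25.4 ± 1.43 and 23.6 ± 0.279 FPKM in the same order. The groups of CYP51A1 did not overlap either, with a 95% interval of the log2 fold change from -0.09 to 0.28.

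TM7SF2 and LBR encode sterol reductases of the same step, and LBR also anchors chromatin at the nuclear envelope. LBR measured 25.0, 21.1 and 20.3 FPKM in ARID1A-deficient libraries, against 36.4, 26.2 and 33.3 FPKM in parental libraries. The groups did not overlap, but LBR missed the threshold (log2 fold change -0.50, SE 0.14, limma adjusted p = 0.0562). TM7SF2 measured 29.5, 44.0 and 37.8 FPKM in ARID1A-deficient libraries, against 26.0, 43 and 26.6 FPKM in parental libraries, and its groups overlapped. Without parental library 2, LBR passed as lower (log2 fold change -0.64, limma adjusted p = 0.003) and TM7SF2 as higher (log2 fold change 0.46, limma adjusted p = 0.0469). The demethylating oxidase gene MSMO1 and the desaturase gene SC5DL had log2 fold changes of 0.03 and 0.05. For the dehydrogenase genes NSDHL and HSD17B7 they were 0.20 and -0.18, and for the isomerase gene EBP and the last reductase gene DHCR7 they were 0.09 and 0.20. All 6 of these genes overlapped between groups, and of them NSDHL passed without parental library 2 (log2 fold change 0.37, limma adjusted p = 0.0449).

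Of the transport genes, STARD4, which carries cholesterol between membranes, measured 7.25, 4.88 and 6.73 FPKM in ARID1A-deficient libraries, against 4.99, 2.96 and 4.23 FPKM in parental libraries. The groups overlapped at their edges, and the gene did not pass (log2 fold change 0.53, SE 0.19, limma adjusted p = 0.118). NPC1L1, the intestinal cholesterol importer, was the member too low to test, at 0.0431, 0.0754 and 0.0345 FPKM in ARID1A-deficient libraries, against 0, 0.0175 and 0 FPKM in parental libraries. Over the cholesterol branch, which holds SREBF2, the enzymes and the transport genes, 1 of 21 tested members passed (4.76%, beside 15.9% of all tested genes). Their median log2 fold change was 0.09. Without parental library 2 the branch had 5 higher and 3 lower, where 31.8% of all tested genes passed.

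Fatty acid synthesis began with a similar picture. None of the 5 enzymes that build palmitate and its precursors passed limma, beside 15.9% of all tested genes. By an unadjusted p under 0.05, 0 were higher and 1 lower, beside 29.5% of all tested genes in either direction. FASN, the fatty acid synthase, measured 47.0, 50.2 and 56.0 FPKM in ARID1A-deficient libraries, against 49.0, 35.8 and 39.3 FPKM in parental libraries. Its lowest ARID1A-deficient value lay under its highest parental value, and the 95% interval of the log2 fold change ran from -0.02 to 0.63 (limma adjusted p = 0.193). ACLY, which makes cytosolic acetyl-CoA from citrate, measured 54.5, 47.5 and 50.6 FPKM in ARID1A-deficient libraries, against 62.2, 41.3 and 54.7 FPKM in parental libraries. The ARID1A-deficient values of ACLY lay within the parental range (95% interval -0.41 to 0.34).

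ACSS2, which makes the same acetyl-CoA from acetate, averaged 20.9 ± 0.919 FPKM in ARID1A-deficient cells and 25.4 ± 0.836 FPKM in parental cells (SD, n = 3 each). Its groups did not overlap, and it missed the threshold (log2 fold change -0.27, SE 0.08, limma adjusted p = 0.0609). The carboxylase genes ACACA and ACACB had log2 fold changes of -0.23 and -0.13, and ACACA passed without parental library 2 (log2 fold change -0.36, limma adjusted p = 0.0486). ACACA, the cytosolic form, held 92.8% ± 1.02 of their summed FPKM in ARID1A-deficient cells and 92.7% ± 0.955 in parental cells (SD, n = 3 each). The 40 tested neighbours of ACACA had a median log2 fold change of -0.35, and their part in its value was not tested.

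Members of the elongase group went in opposite directions. ELOVL6, which lengthens palmitate to stearate, measured 5.59, 5.53 and 4.65 FPKM in ARID1A-deficient libraries 1, 2 and 3, against 10.8, 9.33 and 9.87 FPKM in parental libraries. Every ARID1A-deficient value was well under the lowest parental value. ELOVL6 fell 1.9-fold (log2 fold change -0.81, SE 0.10, limma adjusted p = 0.00284). ELOVL1, which makes saturated and monounsaturated very long chains, measured 128.5, 154.6 and 149.4 FPKM in ARID1A-deficient libraries, against 80.6, 112.4 and 86.1 FPKM in parental libraries. The groups of ELOVL1 lay apart, with parental library 2 the nearest. ELOVL1 rose 1.55-fold (log2 fold change 0.64, SE 0.16, limma adjusted p = 0.0379), a call that ended without any single library other than parental library 2 (highest limma adjusted p = 0.156). ELOVL5, which lengthens polyunsaturated chains, averaged 43.7 ± 2.4 FPKM in ARID1A-deficient cells and 40.3 ± 4.98 FPKM in parental cells (SD, n = 3 each), with overlap. ELOVL6 held 2.73% ± 0.37 of the summed FPKM of these elongases in ARID1A-deficient cells and 7.02% ± 0.995 in parental cells (SD, n = 3 each).

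Desaturases also differed among themselves. SCD, the stearoyl-CoA desaturase that puts the first double bond into saturated chains, measured 220.6, 197.6 and 203.2 FPKM in ARID1A-deficient libraries, against 205.4, 163.8 and 193.2 FPKM in parental libraries. The groups overlapped (95% interval of the log2 fold change -0.18 to 0.47), and SCD had the highest mean of all members in ARID1A-deficient cells. Its paralog SCD5 held 3.94% ± 0.256 of their summed FPKM in ARID1A-deficient cells and 4.65% ± 0.224 in parental cells (SD, n = 3 each). The groups did not overlap in that share (two-sided exact permutation test, p = 0.1, the smallest p that 3 against 3 libraries allow). FADS1, FADS2 and FADS3 lie next to each other on chromosome 11, and FADS1 and FADS2 make the polyunsaturated chains from which signalling lipids come. FADS2 measured 5.07, 5.24 and 5.46 FPKM in ARID1A-deficient libraries, against 2.58, 3.32 and 2.87 FPKM in parental libraries. The groups lay apart, and FADS2 rose 1.8-fold (log2 fold change 0.68, SE 0.10, limma adjusted p = 0.00616). FADS1 averaged 16.0 ± 1.82 FPKM in ARID1A-deficient cells and 15.2 ± 1.44 FPKM in parental cells (SD, n = 3 each), with overlap. FADS3, whose function is less well known, measured 11.5, 14.9 and 14.7 FPKM in ARID1A-deficient libraries, against 17.0, 24.7 and 17.8 FPKM in parental libraries. Its groups did not overlap, but it did not pass (log2 fold change -0.49, SE 0.17, limma adjusted p = 0.0957). FADS2 held 15.1% ± 0.298 of the summed FPKM of the cluster in ARID1A-deficient cells and 7.69% ± 0.467 in parental cells (SD, n = 3 each).

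**Figure D3:**
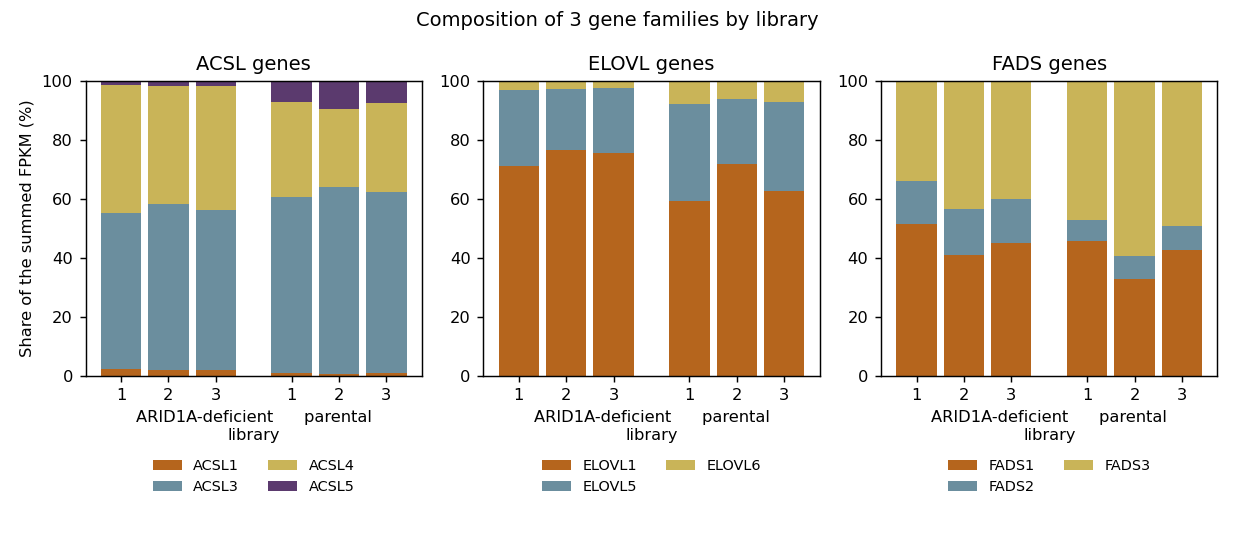
Share of the summed FPKM of each family (percent, y axis) held by its genes in each library, ARID1A-deficient libraries left and parental libraries right of each panel. ACSL5 is a thin band of 1.31% to 1.55% in ARID1A-deficient libraries and a wider one of 7.06% to 9.48% in parental libraries.

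Long-chain acyl-CoA synthetases showed the largest change of any member. ACSL5, an enzyme of mitochondria and the endoplasmic reticulum that is abundant in intestinal epithelium, measured 1.71, 1.67 and 1.69 FPKM in ARID1A-deficient libraries 1, 2 and 3, against 10.7, 10.6 and 10.5 FPKM in parental libraries. The spread within each group was small, with means of 1.69 ± 0.0179 FPKM in ARID1A-deficient cells and 10.6 ± 0.107 FPKM in parental cells (SD, n = 3 each). ACSL5 fell 6.27-fold (log2 fold change -2.11, SE 0.08, limma adjusted p = 1.46e-05). ACSL1, the form that prevails in fat and heart, was a low transcript here, at 2.88, 1.97 and 2.23 FPKM in ARID1A-deficient libraries, against 1.15, 0.673 and 1.10 FPKM in parental libraries. Its groups lay apart, and it rose 2.42-fold (log2 fold change 0.77, SE 0.15, limma adjusted p = 0.0149), a call that ended without ARID1A-deficient library 3 (limma adjusted p = 0.0614).

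Most ACSL transcripts came from the other two genes. ACSL3, a synthetase of lipid droplets, averaged 63.9 ± 4.55 FPKM in ARID1A-deficient cells and 81.9 ± 9.86 FPKM in parental cells (SD, n = 3 each). The groups of ACSL3 did not overlap, but it passed only without parental library 2 among the left-out libraries (limma adjusted p = 0.109 with all libraries and 0.0119 without it). ACSL4, which prefers arachidonate, averaged 49.3 ± 6.92 FPKM in ARID1A-deficient cells and 39.9 ± 9.64 FPKM in parental cells (SD, n = 3 each), with overlap. As a share of the family's summed FPKM, ACSL4 held 41.9% ± 1.72 in ARID1A-deficient cells and 29.6% ± 2.95 in parental cells, and ACSL3 held 54.6% ± 1.79 and 61.6% ± 1.79 in the same order (SD, n = 3 each). The sum itself was 117.3 ± 11.9 FPKM in ARID1A-deficient cells and 133.4 ± 19.8 FPKM in parental cells. Over the fatty acid branch, 3 of 18 tested members rose and 2 fell (27.8%, beside 15.9% of all tested genes), with a median log2 fold change of -0.06. Without parental library 2 these counts were 3 and 4, beside 31.8% of all tested genes.

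Because neighbouring genes can differ together, each member that changed was set beside the 20 tested genes on either side of it on its chromosome. FDFT1, on chromosome 8, lay below all 40 of its neighbours, whose median log2 fold change was -0.22, with 11 lower and 2 higher. The tested genes directly beside it formed an unbroken run of lower genes, with PINX1 at -0.75, MTMR9 at -0.70, GATA4 at -0.63 and NEIL2 at -1.11 on one side and CTSB at -0.86 on the other. SQLE, on the other arm of that chromosome, had neighbours with a median of -0.25 while its own log2 fold change was 0.02. ACSL1 lay above all of its 32 neighbours, which had a median of -0.24. ACSL5 lay below 39 of 40 neighbours, with a median of -0.07, and ELOVL6 below 38 of 40, with a median of -0.15. FADS2 lay above 38 of 40 neighbours, with a median of 0.05. ELOVL1 lay above 33 of 40 neighbours, with a median of 0.19 and 9 neighbours higher. The part of a shifted neighbourhood in any of these values was not tested.

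**Figure D4:**
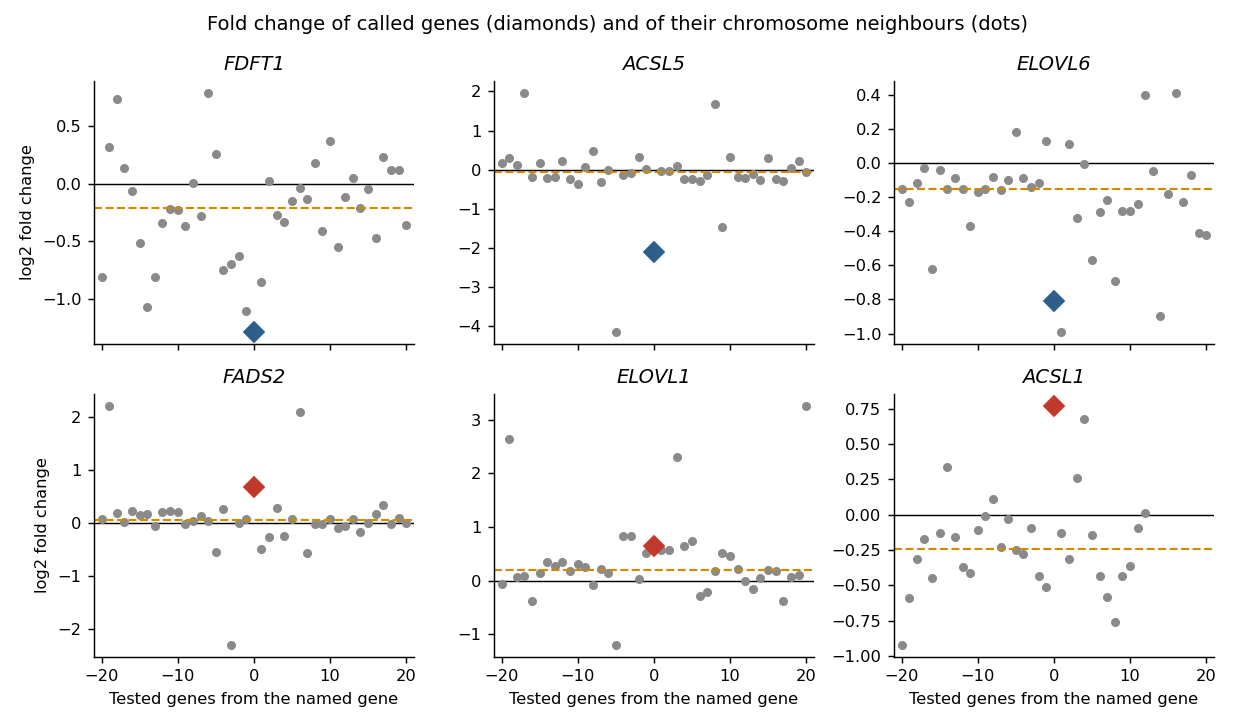
Log2 fold change (ARID1A-deficient over parental) of each member that changed (diamond) and of up to 20 tested genes on either side of it on its chromosome (dots), by rank of position, with the dashed line at the neighbours' median. The FDFT1 diamond, at -1.29, lies under all 40 dots, and the ACSL1 diamond, at 0.77, lies above all 32.

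The values of library 2 in both groups moved with transcript length across the members, and its part in the results was not tested. In parental library 2, the 21 shorter members had a median deviation of 0.08 on the log2 scale from the mean of parental libraries 1 and 3, and the 21 longer members one of -0.28. In ARID1A-deficient library 2 these medians were 0.09 and -0.09, against ARID1A-deficient libraries 1 and 3. Across the 42 members, Pearson's r of this deviation with log2 transcript length was -0.441 for ARID1A-deficient library 2 and -0.557 for parental library 2, a description over genes that share a library. EBP, whose longest transcript has 1775 bases, measured 100.2 FPKM in parental library 2 beside 55.5 and 67.6 FPKM in parental libraries 1 and 3. The log2 fold change between groups had an r of -0.0913 with length.

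**Figure D5:**
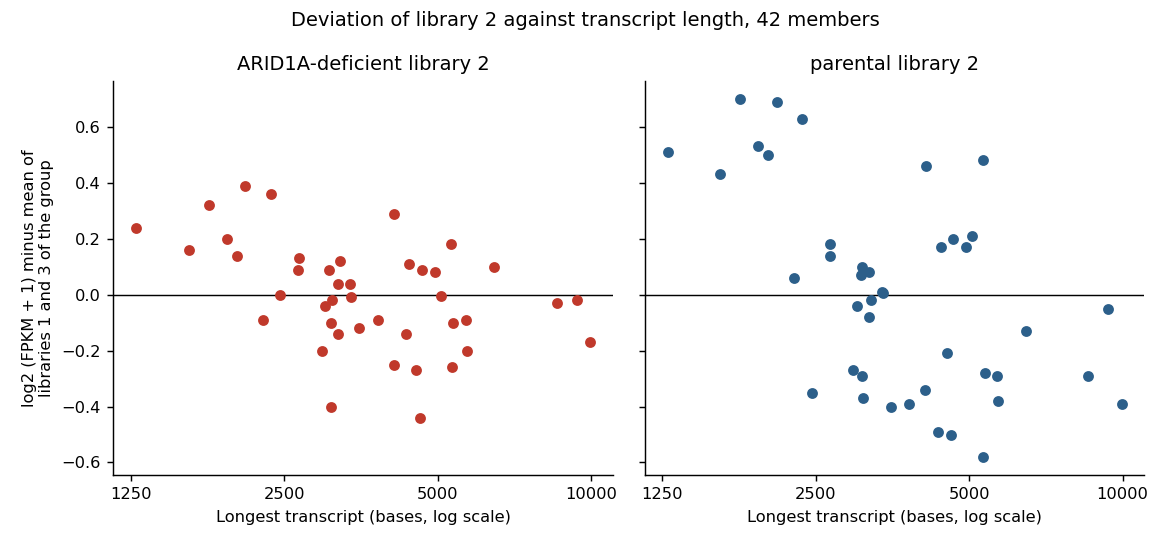
Deviation of library 2 from the mean of libraries 1 and 3 of its group (log2 FPKM + 1, y axis) against the longest transcript of each of the 42 members (bases, log scale), ARID1A-deficient left and parental right. Of the 21 shorter members, 8 lie below 0 in ARID1A-deficient library 2 and 7 in parental library 2, and of the 21 longer members, 15 and 14 do in the same order.

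Genes around the pathway that are not members were described by 8 lists with 95 tested genes, of which 5 rose and 14 fell (19 of 95, beside 15.9% of all tested genes). Their median log2 fold change was -0.07. Sterol storage and transport had 3 of 12 tested genes higher and 2 lower, beside 7.82% and 8.11% of all tested genes. NCEH1, a cholesteryl ester hydrolase gene, rose 2.24-fold to 13.0 ± 1.6 FPKM in ARID1A-deficient cells, against 5.81 ± 1.33 FPKM in parental cells (SD, n = 3 each; limma adjusted p = 0.00705). ABCG1, a cholesterol exporter gene, fell 1.73-fold to 5.12 ± 0.151 FPKM in ARID1A-deficient cells, against 8.85 ± 0.82 FPKM in parental cells (limma adjusted p = 0.00437). STARD5, a sterol-binding protein gene, fell to 2.16 ± 0.328 FPKM in ARID1A-deficient cells, against 4.40 ± 0.701 FPKM in parental cells, a call that ended when some single library was left out (highest limma adjusted p = 0.0514).

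In the list of SREBP processing and sterol sensing, 1 of 11 tested genes fell and none rose. Of all tested genes, 8.11% fell and 7.82% rose. The gene of that list that fell was NR1H3, the gene of the oxysterol receptor LXR alpha. It averaged 9.02 ± 0.704 FPKM in ARID1A-deficient cells and 17.7 ± 3.68 FPKM in parental cells (SD, n = 3 each; limma adjusted p = 0.00839). The isoprenoid branch beside sterol synthesis had 2 of 11 tested genes higher and 2 lower, beside 7.82% and 8.11% of all tested genes. RABGGTB, a subunit gene of the enzyme that attaches lipid tails to Rab proteins, averaged 82.4 ± 2.79 FPKM in ARID1A-deficient cells and 56.3 ± 6.92 FPKM in parental cells (limma adjusted p = 0.0204). IDI2, a paralog of IDI1, averaged 3.13 ± 0.659 FPKM in ARID1A-deficient cells and 1.40 ± 0.56 FPKM in parental cells, and DHDDS, a dolichol synthesis gene, 7.62 ± 0.366 and 9.90 ± 0.63 FPKM in the same order. These 3 calls each ended when some single library was left out (highest limma adjusted p = 0.0924, 0.125 and 0.182). The 40 tested neighbours of DHDDS had a median log2 fold change of -0.27, where its own was -0.34. Their part in the DHDDS value was not tested.

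Of the genes that supply carbon and NADPH, 3 of 7 tested fell and none rose, beside 8.11% of all tested genes lower and 7.82% higher. ME1, the cytosolic malic enzyme, averaged 11.8 ± 1.03 FPKM in ARID1A-deficient cells and 18.6 ± 1.38 FPKM in parental cells (SD, n = 3 each; limma adjusted p = 0.00688). MLXIPL, the gene of the glucose-responsive factor ChREBP, averaged 2.11 ± 0.338 FPKM in ARID1A-deficient cells and 4.22 ± 0.624 FPKM in parental cells (limma adjusted p = 0.0111). IDH1, a cytosolic isocitrate dehydrogenase, averaged 38.3 ± 3.14 FPKM in ARID1A-deficient cells and 56.0 ± 7.91 FPKM in parental cells, a call that ended without some single libraries (highest limma adjusted p = 0.145).

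In fatty acid uptake and binding, 3 of 12 tested genes fell and none rose, beside 8.11% of all tested genes lower. ACSS1, the mitochondrial acetate-activating enzyme, fell 3.3-fold to 1.53 ± 0.126 FPKM in ARID1A-deficient cells, against 5.05 ± 0.591 FPKM in parental cells (SD, n = 3 each; limma adjusted p = 0.000505). Its cytosolic relative ACSS2 had a log2 fold change of -0.27. FABP4, a fatty acid binding protein gene of fat cells, fell 5.93-fold to 1.24 ± 0.335 FPKM in ARID1A-deficient cells, against 7.38 ± 2.17 FPKM in parental cells (limma adjusted p = 0.00149). The 4 fat cell markers summed to 0.965 to 1.69 FPKM in ARID1A-deficient and 5.75 to 9.95 FPKM in parental libraries, nearly all of it FABP4. ACSS3, another mitochondrial acyl-CoA synthetase, averaged 4.30 ± 0.725 FPKM in ARID1A-deficient cells and 6.62 ± 0.836 FPKM in parental cells, a call that ended without some single libraries (highest limma adjusted p = 0.167).

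Triglyceride and phospholipid assembly had 1 of 15 tested genes lower and none higher, beside 8.11% and 7.82% of all tested genes. AGPAT5, an acyltransferase gene on chromosome 8, fell 2.19-fold to 11.6 ± 1.17 FPKM in ARID1A-deficient cells, against 25.4 ± 2.2 FPKM in parental cells (SD, n = 3 each; limma adjusted p = 0.000935). Its 28 tested neighbours had a median log2 fold change of -0.30, with 11 lower, and their part in its value was not tested. FDFT1 was among these neighbours, and AGPAT5 among those of FDFT1. The neighbours of both genes are thus largely the same genes, not separate observations. Fatty acid breakdown had 2 of 17 tested genes lower and none higher, beside 8.11% and 7.82% of all tested genes. The lower genes were HADHA, at 82.8 ± 2.42 FPKM in ARID1A-deficient cells and 123 ± 11.7 FPKM in parental cells, and HADHB, at 60.0 ± 2.16 and 82.3 ± 1.26 FPKM in the same order. They encode the subunits of the mitochondrial trifunctional protein. HADHA and HADHB are next to each other among the tested genes, and the 40 tested neighbours of each had a median log2 fold change of -0.31. Their neighbours are thus largely the same genes, and the part of the neighbourhood in these values was not tested. The calls of HADHA and HADHB ended without some single libraries (highest limma adjusted p = 0.0886 for HADHA and 0.0959 for HADHB). None of the 10 other tested elongases, desaturases and their partners passed limma, beside 15.9% of all tested genes. By an unadjusted p under 0.05, 1 was higher and 1 lower, beside 29.5% of all tested genes in either direction.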

How the data were processed

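Polyadenylated RNA of 3 ARID1A-deficient and 3 parental libraries was sequenced, with groups and replicates as titled. RNA was prepared with TRIzol and a TruSeq version 2 kit, per the labels' protocols. The kit keeps no strand, so a gene and an overlapping antisense gene share reads. The authors deposited FPKM values by gene symbol, in a table for each library. Reads were handled on build GRCh37 (hg19) with Cuffdiff 2.2.1.5, Cuffnorm 2.2.1.2 and TopHat2 2.1.1, per the submitters' processing notes. The sources used here name no annotation, filter or scaling option. FPKM does not show a change in total RNA per cell. Depth per sample is not given, so precision rests on the spread between 3 libraries.

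Of 23273 rows per table, 28 with symbols turned into dates were left out. The 12826 rows that averaged 0.5 FPKM or more were tested with limma 3.58.1 (R 4.3.3) on log2(FPKM + 1), with trend and robust moderation and group as the only term. P-values are two-sided, with Benjamini-Hochberg adjustment over all tested rows and a threshold of 0.05. Folds are ratios of mean FPKM, and log2 fold changes are on the log2(FPKM + 1) scale, which understates changes of low genes. The fit was tested on simulated data. The members and lists were chosen with earlier results of these data known. Members that passed, the regulators, FASN, ACLY, SCD, HMGCS1 and SQLE are given per library, and in each other list up to 3 genes with the smallest adjusted p are named where they passed. Some further members were named after their values were seen. Gene order and promoters are RefSeq's of GRCh38.p14, another build than the files'. Transcript lengths are those of the longest GENCODE transcript of each symbol, and were found for 96.2% of tested rows. Alternatives covered the pseudocount, the filter, the scaling, the moderation, transcript length, a replicate block and each library left out.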

Additional observations from a re-analysis of the deposited data

How the results depend on the processing

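ACSL5, FDFT1, ELOVL6 and FADS2 passed without any single library. Across 586 recomputed values of the members' log2 fold changes, 519 kept direction and side of the threshold, 6 lost the threshold (ELOVL1 and ACSL1), 34 gained it and 27 changed sign, all in members that had not passed. The cause of these changes was not tested. Depth is unknown, and 3 libraries a group limit the precision.

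Leaving out each library in turn gave 964 to 4079 genes called, 531 to 1982 higher and 433 to 2097 lower, where all libraries gave 2043, 1003 and 1040. Members higher ranged over 1 to 8 and lower over 3 to 7, cholesterol branch members higher over 0 to 5 and lower over 1 to 3, and fatty acid branch members higher over 1 to 3 and lower over 2 to 4. Other pathway genes higher ranged over 1 to 13 and lower over 7 to 19. The highest of these counts came without parental library 2. The difference in SCD5 share ranged over -0.843 to -0.567 percentage points, where all libraries gave -0.714. With each library's length slope as a covariate, 4147 genes were called, 1851 higher and 2296 lower. Members then had 7 higher and 8 lower, the cholesterol branch 2 and 3, the fatty acid branch 5 and 5, and other pathway genes 11 and 22. A minimum mean of 3 FPKM gave 667 genes higher and 795 lower. Quantile normalization gave 5 members higher and 4 lower, with 2 higher and 1 lower in the cholesterol branch. Median-of-ratios scaling and a fit with no trend or robust moderation each gave 1 higher and 1 lower in that branch.

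Whether same-numbered libraries of the groups belong together as pairs was not settled, and the main fit treated them as unpaired. The deviations of same-numbered libraries from their group means correlated with r of 0.219, 0.217 and -0.0131 for replicates 1, 2 and 3, and the libraries of replicates 1 and 2 correlated best with their own number while those of replicate 3 did not. With a replicate block, 4049 genes were called, 1861 higher and 2188 lower. Members had 9 higher and 8 lower, the cholesterol branch 5 and 3, the fatty acid branch 4 and 5, and other pathway genes 12 and 20. STARD4, ACSS2, FADS3 and ACSL4 passed with the block and with the length slope, though not without parental library 2. Their limma adjusted p with the block was 0.000756, 0.0309, 0.00105 and 0.0196, in that order. With the length slope it was 0.00374, 0.0129, 0.00377 and 0.00827. IDI1 passed with the block (limma adjusted p = 0.0484), and FASN with the length slope (limma adjusted p = 0.0152). SREBF2, LBR, ACSL3 and ACAT2 passed without parental library 2, with the block and with the length slope. Their limma adjusted p was 0.00372, 0.00065, 0.0128 and 0.0178 with the block, and 0.0107, 0.0089, 0.0214 and 0.0105 with the length slope. MVD and LSS passed without parental library 2 and with the block (limma adjusted p = 0.0375 and 0.0343), though not with the length slope.

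The sign changes were small. With quantile normalization, INSIG2 was 0.0045 and FDPS -0.02. With the length slope, FDPS was -0.09, EBP -0.07 and ACLY 0.07. With each library left out in turn, the log2 fold changes that crossed 0 ranged over -0.20 to 0.09 for ACLY, -0.10 to 0.32 for EBP, -0.0041 to 0.16 for FADS1, -0.12 to 0.18 for FDPS, -0.01 to 0.22 for HMGCS1, -0.01 to 0.06 for INSIG1, -0.07 to 0.0083 for INSIG2, -0.01 to 0.05 for MSMO1, -0.22 to 0.10 for MVK, -0.24 to 0.09 for PMVK, -0.06 to 0.12 for SC5DL and -0.08 to 0.08 for SQLE.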
